A study of Mus musculus with 11 samples.

Results

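The mitochondrial respiratory chain subunits were taken as every array probe whose target name begins with NDUFA, NDUFB, NDUFC, NDUFS, NDUFV, SDH, UQCR, COX4, COX5, COX6, COX7, COX8 or ATP5. The rule found 95 probes of 77 genes among the 25697 probes and 18138 names on the array, and used no measured value. RNA of the terminal ileum was measured in 5 SKG and 3 BALBc mice, all naive and 8 to 12 weeks old, on Illumina MouseRef-8 bead arrays with 1 array per mouse. SKG mice are on a BALB/c background and have a germline point mutation of Zap70, which encodes a kinase that T cells need to signal from their receptor. BALBc mice are the strain without that mutation. SKG replicates 4 to 8 and BALBc replicate 3 formed batch 3, and BALBc replicates 1 and 2 formed batch 2, so batch 3 alone held both strains. A further 3 SKG arrays of batch 1 were left out because their rows did not follow the probe names: their signals had rank correlations of 0.0768 to 0.0966 with the other 8 arrays, against 0.838 to 0.947 among those 8. Sex, litter and housing are not stated.

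The respiratory chain moves electrons from NADH and succinate to oxygen and uses the energy to pump protons across the inner mitochondrial membrane. Complex I oxidises NADH, complex II oxidises succinate, complex III passes electrons to cytochrome c, complex IV reduces oxygen, and complex V (ATP synthase) lets protons flow back to make ATP. Most subunits are encoded in the nucleus and measured here; a few of complexes I, III, IV and V are encoded in mitochondrial DNA and fall outside the name rule. Intestinal epithelium uses this ATP for nutrient transport and for its constant renewal, and muscle layers of the gut wall use it for contraction.

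Signals are given below as log2 values after background correction and quantile normalisation, and a probe's level is never set against another probe's. A probe was kept when its detection p was under 0.05 on at least 3 of the 8 arrays. Of the 95 probes, 89 (72 genes) were kept, against 13775 of all 25697. Of the kept member probes 82 (92.1%) were above background on all 8 arrays, against 75.4% of all kept probes. The probes not kept were those of Ndufs1, a core subunit of complex I, of Uqcrfs1, the iron-sulphur subunit of complex III, of Uqcrq of complex III, of Cox7b2 and Cox8c, 2 complex IV isoforms known from testis, and 1 of the 2 probes of the testis isoform Cox6b2. By function, the kept probes divided into 41 of complex I (32 genes), 6 of complex II (3 genes), 4 of complex III (4 genes), 17 of complex IV (15 genes) and 16 of complex V (14 genes). The other 5 probes answered the name rule but are not chain subunits: Ndufaf1, an assembly factor of complex I, Emc8, a subunit of a protein insertion complex of the endoplasmic reticulum, and Dmac2l and Dmac2, named ATP5S and ATP5SL on the array.

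The arrays detected 12445 to 13201 probes in SKG mice and 12753 to 14076 in BALBc mice. Median raw signals were 98.5 to 105.6 on the SKG arrays, against 187.5, 163 and 103.7 on BALBc replicates 1, 2 and 3, so that the 2 arrays of batch 2 were the brighter ones. Of the 13 ileal enterocyte markers listed, 9 were kept, and Fabp2 and Slc10a2 were not. T cell markers had the lowest median difference of the cell type lists (−1.75): all 16 kept probes were below 0, and 6 passed the threshold, of Itgae, Cd6 and Cd8b1. All 15 smooth muscle probes were below 0 (median −0.67), and 2 passed, both of Acta2. No probe of the other cell type lists passed. Below 0 were 9 of 10 macrophage (median −0.75), 10 of 10 B and plasma cell (−0.54) and 11 of 13 cycling crypt probes (−0.41). So were 5 of 5 striated muscle and 3 of 4 fat probes. Fewer were below 0 among enterocyte (1 of 9, median 0.22), goblet (1 of 4) and Paneth probes (3 of 6). Of all kept probes 49.1% were below 0. The log2 of the summed T cell signal was 9.85 to 10.60 in SKG and 11.38 to 12.36 in BALBc, and that of the smooth muscle list was 15.27 to 15.72 in SKG and 15.36 to 16.32 in BALBc. The part of these cells in the results below was not tested. In pieces of whole tissue, fewer cells of a type and less RNA per cell cannot be told apart.

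SKG and BALBc ileum were compared to ask whether transcripts of the chain differ between the strains. No member probe of the 89 passed an adjusted p of 0.05 in limma's moderated test, with 0 higher and 0 lower, while 84 of the 13775 kept probes (0.61%) passed, 48 higher (0.348%) and 36 lower (0.261%). At an unadjusted p under 0.05, 2 members (2.25%) were below the threshold, against 13.4% of all probes. The fitted differences, SKG minus BALBc, lay between −0.99 (Ndufb9) and 0.92 (Atp5o) on the log2 scale. Of the 95% intervals 87 included 0, and 54 lay wholly within 1 log2 unit of 0. They reached a median of 0.68 to either side and are not adjusted for the number of probes. For a probe of typical spread a smaller difference could thus not be told from 0 with these mice even before adjustment. Passing the adjusted threshold takes a larger one. A fitted difference weighs the 2 batches and is therefore not the plain difference of the group means. Leaving out BALBc replicate 3, which removes the only BALBc array of batch 3, gave 16 members higher and 25 lower (46.1%), against 38.1% of all probes; batch and strain cannot be told apart there. With batch left out of the model 1 member, Sdhc, passed, against 5.34% of all probes. No member passed under the other settings, where the share of all probes was 0.704% with batch as a fixed term, 0.624% without background correction, 0.668% with an offset of 50, 0.683% over probes detected on all 8 arrays, 0.471% without a filter, 1.49% in the authors' deposited table and 0.35% in batch 3 alone. It was 0.228%, 0.316%, 6.35%, 0.237% and 0.326% without SKG replicate 4, 5, 6, 7 and 8 in turn, and 0.3% and 0.181% without BALBc replicate 1 and 2, again with 0 members.

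**Figure D1:**
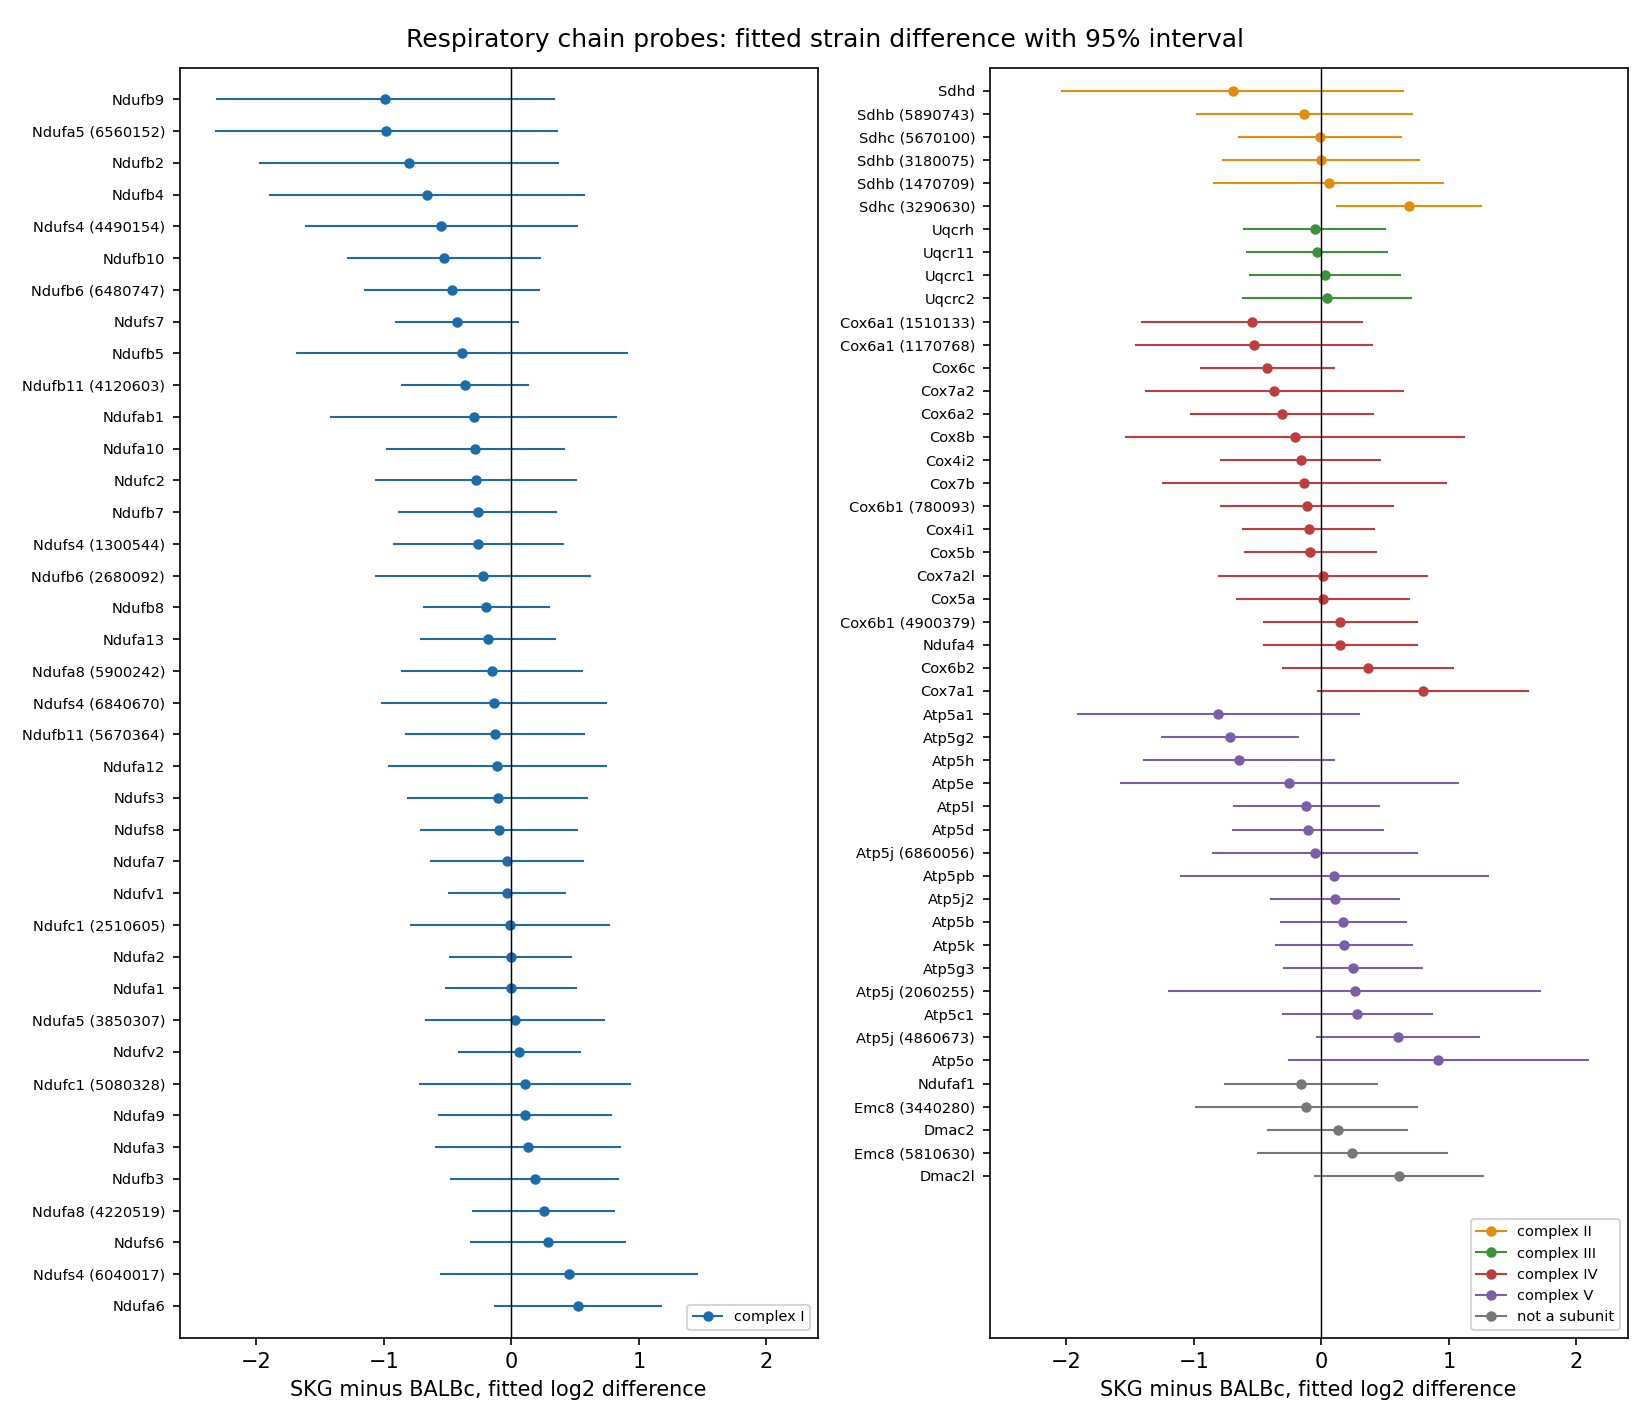
Fitted SKG minus BALBc difference (log2, horizontal axis) of 87 of the 89 kept probes, ordered within each complex, with 95% intervals as lines; probe numbers are given where a gene has several kept probes. All intervals drawn include 0 except those of Sdhc probe 3290630 (above 0) and Atp5g2 (below 0), neither of which passed after adjustment over all probes.

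The 2 smallest p-values belonged to a complex V and a complex II probe. Atp5g2 encodes one of the precursors of the c subunit, which forms the rotating ring of ATP synthase. It measured 10.51, 10.33, 10.09, 9.97 and 10.47 in SKG replicates 4 to 8, against 10.93, 10.90 and 11.01 in BALBc replicates 1 to 3, on the log2 scale. Every SKG mouse was below every BALBc mouse, and the fitted difference was −0.71 ± 0.24 (± SE, here and for every fitted difference), with an adjusted p of 0.23 and a 95% interval of −1.25 to −0.18. Within batch 3 the 5 SKG mice averaged −0.74 relative to the single BALBc mouse. The Sdhc probe 3290630 measured 5.30, 5.56, 5.17, 5.63 and 5.76 in SKG replicates 4 to 8, against 4.45, 4.33 and 4.94 in BALBc replicates 1 to 3. This probe is close to background, being detected on 5 of 5 SKG arrays and 1 of 3 BALBc arrays, and its fitted difference of 0.69 ± 0.26 had an adjusted p of 0.278. The second Sdhc probe, 5670100, detected on all 8 arrays, had a fitted difference of −0.010 ± 0.29. Without BALBc replicate 3 both genes' named probes passed, with adjusted p-values of 0.0313 for Atp5g2 and 0.00217 for Sdhc probe 3290630. In that fit strain and batch cannot be told apart, and 38.1% of all probes passed. Without a batch term the Sdhc probe was at 0.0451, where 5.34% of all probes passed. Over their alternatives the adjusted p ranged up to 0.516 for Atp5g2 and 0.509 for the Sdhc probe.

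Groups did not overlap in 6 of the 89 members (6.74%), 1 higher (1.12%) and 5 lower (5.62%) in SKG, against 15.3% of all probes, 10% higher and 5.25% lower. The one higher was Sdhc probe 3290630. The 5 lower were Atp5g2, Atp5h, Cox6c, Ndufs7 and Ndufb8. The share among members was thus below the share among all probes, and no member of these 6 passed the adjusted threshold. Atp5h, the d subunit of the peripheral stalk of ATP synthase, measured 10.48, 10.47, 9.69, 10.39 and 10.15 in SKG replicates 4 to 8, against 11.79, 11.95 and 10.54 in BALBc replicates 1 to 3. SKG replicates 4, 5 and 7 were close to the BALBc mouse of batch 3, and the BALBc mice of batch 2 stood above all others; the fitted difference was −0.65 ± 0.34 (adjusted p 0.446). Cox6c, a small nuclear-encoded subunit of complex IV, measured 12.42, 12.41, 12.14, 12.33 and 11.95 in SKG replicates 4 to 8, against 12.88, 12.95 and 12.59 in BALBc replicates 1 to 3, with a fitted difference of −0.42 ± 0.24 (adjusted p 0.476). Ndufs7, the complex I core subunit that holds the last iron-sulphur cluster before ubiquinone, measured 11.88, 11.71, 11.60, 11.58 and 11.89 in SKG replicates 4 to 8, against 12.25, 12.18 and 12.14 in BALBc replicates 1 to 3, with a fitted difference of −0.43 ± 0.22 (adjusted p 0.428).

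Promoter sequences are shown for 5 genes named in this comparison: Atp5g2 and Cox7a1, which had 2 of the 3 smallest p-values, Ndufa6 and Atp5o, with the highest fitted difference of their complex, and Ndufs4, whose 4 probes differ most in how they changed between batches. Nuclear genes of the chain are known as targets of the transcription factors NRF1, GABP (an ETS factor) and YY1, so 3 short motifs were searched on both strands in the RefSeq windows from 250 bases before to 50 after each annotated start (GRCm38.p6, the C57BL/6J reference). Of the 73 chain subunit genes 60 had a window. The NRF1 motif (GCGCA, any base, GCGC) stood in 14 of the 60 genes (23.3%), against 5.19% of all 27025 genes with a window. The ETS core CCGGAAG stood in 15 (25.0%), against 9.93%, and the YY1 motif AAGATGGCG in 7 (11.7%), against 1.64%. At least 1 of the 3 stood in 30 of the 60 (50%), against 15.1% of all genes. Of complex V 6 of 13 genes held the NRF1 motif, and of complex I 5 of 29. For comparison, TATAAA stood in 11.7% of the subunit genes and 15.7% of all genes, and CCAAT in 40.0% and 41.1%. A shorter NRF1 spelling, GCATGCGC, which overlaps the first in part, stood in 15% against 3.05%, and a longer ETS spelling, CCGGAAGTG, in 3.33% against 2.25%. A match describes letters in a window and no more. Each window is printed 5′ to 3′ along the gene. Capitals mark the NRF1 motif, read on either strand and placed by its first printed base, in Atp5g2 (chr15:102670998-102671297, minus strand), 42 bases before the start, in Ndufa6 (chr15:82354242-82354541, minus strand), 23 bases after it, and in Atp5o (chr16:91931581-91931880, minus strand), 9 bases after it. They mark the YY1 motif in Ndufs4 (chr13:114388045-114388344, minus strand), 35 bases after the start. In Cox7a1 (chr7:30183921-30184220, plus strand) none of the 3 motifs was found, and capitals mark CCAAT read on the other strand, 137 and 74 bases before the start.
Atp5g2: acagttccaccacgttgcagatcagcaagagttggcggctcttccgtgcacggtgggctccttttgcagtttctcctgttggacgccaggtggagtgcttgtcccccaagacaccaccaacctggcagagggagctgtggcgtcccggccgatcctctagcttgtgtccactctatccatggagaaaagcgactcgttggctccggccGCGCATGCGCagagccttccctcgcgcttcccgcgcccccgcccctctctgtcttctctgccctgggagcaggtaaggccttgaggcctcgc
Ndufa6: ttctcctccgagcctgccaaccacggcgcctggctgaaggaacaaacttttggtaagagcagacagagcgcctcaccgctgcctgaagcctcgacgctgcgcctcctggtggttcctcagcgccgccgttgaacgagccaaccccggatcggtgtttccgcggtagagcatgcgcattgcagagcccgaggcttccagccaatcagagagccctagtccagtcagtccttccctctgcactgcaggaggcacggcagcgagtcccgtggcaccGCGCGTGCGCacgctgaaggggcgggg
Atp5o: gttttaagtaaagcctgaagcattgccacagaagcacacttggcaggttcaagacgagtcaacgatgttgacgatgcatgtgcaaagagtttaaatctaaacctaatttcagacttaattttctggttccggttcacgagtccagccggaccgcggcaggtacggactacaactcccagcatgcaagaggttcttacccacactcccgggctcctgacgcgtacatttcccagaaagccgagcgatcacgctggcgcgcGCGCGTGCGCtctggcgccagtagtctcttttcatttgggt
Ndufs4: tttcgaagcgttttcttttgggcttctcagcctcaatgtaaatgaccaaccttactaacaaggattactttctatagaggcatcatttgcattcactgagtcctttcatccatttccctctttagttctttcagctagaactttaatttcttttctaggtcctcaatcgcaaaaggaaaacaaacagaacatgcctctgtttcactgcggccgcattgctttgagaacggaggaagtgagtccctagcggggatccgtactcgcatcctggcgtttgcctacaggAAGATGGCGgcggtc
Cox7a1: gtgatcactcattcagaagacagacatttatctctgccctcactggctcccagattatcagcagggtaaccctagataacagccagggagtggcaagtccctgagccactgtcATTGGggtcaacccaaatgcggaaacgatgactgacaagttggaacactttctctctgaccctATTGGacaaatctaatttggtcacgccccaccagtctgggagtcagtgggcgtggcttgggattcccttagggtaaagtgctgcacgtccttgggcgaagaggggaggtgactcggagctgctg

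Complex I is the largest of the complexes, with a core that carries the electron path and many accessory subunits around it. Its 41 probes had a median fitted difference of −0.14, with 30 below 0 and none past the threshold (smallest adjusted p 0.428). Within batch 3 alone the median difference was 0.0044. The 7 core probes (6 genes) lay between −0.43 and 0.34, with 5 below 0, and the 34 accessory probes (26 genes) between −0.99 and 0.52, with 25 below 0. Ndufa6, an accessory subunit that binds the mitochondrial acyl carrier protein, had the highest value of the complex. It measured 12.75, 12.63, 11.86, 12.72 and 12.57 in SKG replicates 4 to 8, against 11.86, 11.67 and 12.06 in BALBc replicates 1 to 3. SKG replicates 4, 5, 7 and 8 were above the 3 BALBc mice and SKG replicate 6 lay among them; the fitted difference was 0.52 ± 0.30 (adjusted p 0.487). Ndufb9, an accessory subunit of the membrane arm, had the lowest. It measured 8.01, 7.97, 7.93, 7.51 and 8.19 in SKG replicates 4 to 8, against 11.64, 11.71 and 7.95 in BALBc replicates 1 to 3, and its fitted difference of −0.99 ± 0.60 (adjusted p 0.524) sits beside a BALBc spread of 2.15 (SD, n = 3), with the mice of batch 2 apart from that of batch 3. Ndufv1, which binds NADH, had a fitted difference of −0.034 ± 0.21, and Ndufv2, its partner with an iron-sulphur cluster, 0.062 ± 0.22.

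Complex II is encoded wholly in the nucleus, and Sdhb, its iron-sulphur subunit, and the membrane anchors Sdhc and Sdhd had kept probes. The median fitted difference of its 6 probes was −0.0065, and 0.14 within batch 3. Of the 3 Sdhb probes, 2 gave nearly the same picture. Probe 3180075 measured 10.75, 10.65, 9.62, 10.49 and 10.75 in SKG replicates 4 to 8, against 10.83, 10.46 and 10.39 in BALBc replicates 1 to 3. Probe 5890743 measured 10.60, 10.55, 9.45, 10.39 and 10.87 in SKG replicates 4 to 8, against 10.84, 10.44 and 10.46 in BALBc replicates 1 to 3. In both, SKG replicate 6 was the lowest of the 8 mice and the other SKG mice overlapped with BALBc, with fitted differences of −0.0029 ± 0.35 and −0.13 ± 0.38. Sdhd had the lowest value of the complex. It measured 6.85, 7.81, 7.35, 7.19 and 6.89 in SKG replicates 4 to 8, against 10.39, 10.72 and 7.00 in BALBc replicates 1 to 3; SKG and BALBc mice of batch 3 overlapped, and the 2 BALBc mice of batch 2 stood apart.

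Complex III had 4 kept probes, and their fitted differences, from −0.053 ± 0.25 to 0.043 ± 0.30, were the narrowest range of the 5 complexes. Uqcrc2, a core protein, measured 12.76, 12.83, 12.25, 12.84 and 12.84 in SKG replicates 4 to 8, against 13.38, 12.62 and 12.54 in BALBc replicates 1 to 3. Uqcrh, the hinge protein that helps cytochrome c bind, measured 13.27, 13.31, 12.92, 13.21 and 13.30 in SKG replicates 4 to 8, against 13.80, 13.28 and 13.16 in BALBc replicates 1 to 3. In each, BALBc replicate 1 was the highest mouse and SKG replicate 6 the lowest. Uqcrc1, the other core protein, had a fitted difference of 0.028 ± 0.27, and Uqcr11, a small subunit, −0.035 ± 0.25. The median of the 4 was −0.0032.

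Complex IV has several subunits with isoforms of different tissues. Its 17 probes had a median fitted difference of −0.11 (11 below 0), and −0.087 within batch 3. Cox7a1, the isoform known from heart and skeletal muscle, had the highest value. It measured 11.79, 11.39, 10.52, 11.34 and 11.34 in SKG replicates 4 to 8, against 10.16, 9.58 and 10.69 in BALBc replicates 1 to 3. SKG replicates 4, 5, 7 and 8 lay above all BALBc mice and SKG replicate 6 below BALBc replicate 3; the fitted difference was 0.80 ± 0.38 (adjusted p 0.391, interval −0.029 to 1.62). The size of the Cox7a1 difference depended on the processing. It ran from 0.59 to 4.09 over the 17 other settings, the highest being that of the authors' deposited table, where no member passed. With 75th percentile scaling it was 1.06, and it ran from 0.66 to 1.41 when 1 mouse was left out in turn. Its general counterpart Cox7a2 measured 7.84, 8.28, 8.10, 7.71 and 7.86 in SKG replicates 4 to 8, against 10.40, 10.18 and 7.64 in BALBc replicates 1 to 3, with the 2 BALBc mice of batch 2 apart from all others. Cox7a2l, which helps join complexes into supercomplexes, had a fitted difference of 0.010 ± 0.37.

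The other isoform pairs showed no difference that passed. Cox4i1, the general isoform, measured 13.16, 13.27, 13.51, 13.16 and 13.24 in SKG replicates 4 to 8, against 12.96, 13.35 and 13.44 in BALBc replicates 1 to 3. Cox4i2, known from lung and from low oxygen, measured 4.96, 5.00, 4.89, 5.52 and 5.14 in SKG replicates 4 to 8, against 4.48, 4.70 and 5.50 in BALBc replicates 1 to 3 and was detected on 7 of the 8 arrays. Groups overlapped in both, with fitted differences of −0.099 ± 0.23 and −0.16 ± 0.28. Cox6a1, the general isoform, had the lowest value of the complex, with fitted differences of −0.54 ± 0.39 (probe 1510133) and −0.53 ± 0.42 (probe 1170768). The first measured 12.80, 12.59, 11.76, 12.52 and 13.21 in SKG replicates 4 to 8, against 13.86, 13.42 and 12.94 in BALBc replicates 1 to 3. The muscle isoform Cox6a2 measured 5.17, 4.53, 5.52, 5.15 and 5.42 in SKG replicates 4 to 8, against 4.78, 4.88 and 5.69 in BALBc replicates 1 to 3, with a fitted difference of −0.31 ± 0.32. In neither isoform were the groups apart. The general Cox6b1 had fitted differences of −0.11 ± 0.31 (probe 780093) and 0.15 ± 0.27 (probe 4900379), of opposite sign, and the kept probe of the testis isoform Cox6b2 one of 0.36 ± 0.30. Ndufa4, first counted as a complex I subunit and now as one of complex IV, measured 13.05, 12.91, 12.38, 13.06 and 12.94 in SKG replicates 4 to 8, against 13.04, 12.59 and 12.69 in BALBc replicates 1 to 3, with a fitted difference of 0.15 ± 0.27.

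Cox8b, in mice the isoform of heart, skeletal muscle and brown fat, differed among all 3 BALBc mice. It measured 7.21, 7.21, 8.66, 6.95 and 7.25 in SKG replicates 4 to 8, against 5.52, 6.98 and 8.15 in BALBc replicates 1 to 3. SKG replicate 6 and BALBc replicate 3 were the highest of their strains, and the groups overlapped (fitted difference −0.21 ± 0.60). Adipoq and Cfd, of the 4 kept fat markers, are given beside it. SKG replicate 6 was above the other SKG mice in 3 of 4 fat and 2 of 5 striated muscle probes, against 34.8% of all probes. Adipoq, a hormone of fat cells, measured 6.90, 7.70, 9.60, 7.90 and 8.07 in SKG replicates 4 to 8, against 6.63, 9.19 and 9.51 in BALBc replicates 1 to 3, and Cfd, another fat cell product, 10.30, 11.14, 12.64, 10.76 and 11.73 in SKG replicates 4 to 8, against 8.61, 11.12 and 12.61 in BALBc replicates 1 to 3. Of the 6 fat markers listed 4 were kept, and Ucp1, which defines brown fat, and Retn were not. The log2 of the summed signal of the 4 was 10.50 to 12.86 in SKG and 9.06 to 12.80 in BALBc. That sum lay close to Cfd alone, with 12.86 against 12.64 in SKG replicate 6. The log2 of the summed striated muscle signal was 8.92 to 9.67 in SKG and 8.70 to 9.89 in BALBc. The part of fat or muscle in the Cox8b values was not tested.

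Complex V had 16 probes with a median fitted difference of 0.10 (7 below 0), and 0.097 within batch 3. Of the catalytic head and central stalk 3 of 5 probes were below 0, of the peripheral stalk 2 of 6 and of the membrane part 2 of 5. Atp5a1, the alpha subunit of the head, had the lowest value. It measured 9.20, 9.47, 9.48, 9.20 and 9.53 in SKG replicates 4 to 8, against 12.45, 12.47 and 9.39 in BALBc replicates 1 to 3, with the BALBc mouse of batch 3 among the SKG mice. Atp5b, the beta subunit that makes ATP, had a fitted difference of 0.17 ± 0.22, from means of 13.83 ± 0.13 in SKG (SD, n = 5) and 13.55 ± 0.21 in BALBc (SD, n = 3). Atp5o, the stalk subunit that gives ATP synthase its sensitivity to oligomycin, had the highest value. It measured 9.35, 9.36, 7.82, 8.74 and 9.59 in SKG replicates 4 to 8, against 7.35, 6.58 and 8.43 in BALBc replicates 1 to 3. SKG replicate 6 lay between the BALBc mice and the other SKG mice above them all, and the fitted difference was 0.92 ± 0.53 (adjusted p 0.495). Atp5g3, another c subunit precursor, measured 13.90, 13.95, 13.95, 13.78 and 13.88 in SKG replicates 4 to 8, against 13.15, 12.85 and 13.87 in BALBc replicates 1 to 3. Its fitted difference of 0.25 ± 0.25 was opposite in sign to that of Atp5g2; the difference between these probes was not tested. Of the genes that are not subunits, Dmac2l, which is linked to ATP synthase coupling, measured 7.37, 7.21, 6.78, 7.75 and 7.58 in SKG replicates 4 to 8, against 6.93, 7.07 and 6.64 in BALBc replicates 1 to 3; only SKG replicate 6 overlapped with BALBc, and the fitted difference was 0.61 ± 0.30 (adjusted p 0.417).

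The BALBc mice of the 2 batches differed from each other by more than the largest fitted strain difference of any member (0.99 in size) in 27 of the 89 probes, 19 higher and 8 lower in batch 2. The share of all probes past that limit was not counted, and shares at the near limit of 1 log2 unit are given below. The mean of BALBc replicates 1 and 2 exceeded BALBc replicate 3 by more than 2 log2 units in 14 of the 89 probes (15.7%), against 4.97% of all kept probes. None was lower by as much, against 1.14%. This limit was chosen after the values had been seen; at 1 log2 unit, 19 probes were higher (21.3%, against 12.8% of all) and 8 lower (8.99%, against 13.4%). The 14 comprised Ndufa5 probe 6560152, Ndufb9, Ndufb5, Ndufb4, Ndufb2, Ndufab1 and Ndufs4 probe 4490154 of complex I, Sdhd and Sdhb probe 1470709 of complex II, Cox7b and Cox7a2 of complex IV, and Atp5e, Atp5a1 and Atp5j probe 2060255 of complex V. Their gaps ran from 2.23 to 3.87. In all 14, the 5 SKG mice, all of batch 3, lay below both BALBc mice of batch 2, and in 12 every SKG mouse was within 1 log2 unit of the BALBc mouse of batch 3. Within batch 3 the SKG mean minus the BALBc mouse was −0.028 to 1.0 in these probes. In the authors' deposited table, which holds 48 member probes, 1 had such a gap. That table does hold Ndufb9, Ndufa5 probe 6560152, Ndufs4 probe 4490154, Cox7a2 and Atp5a1. At most 1 of these therefore had the gap there. How many of the 14 it holds, and its share over all probes, were not counted. Raw signals showed the gap too. The Ndufb9 probe read 252.5, 265.9, 206.2, 233.1 and 321.2 on the SKG arrays, against 7570, 6377 and 270.7 on those of BALBc replicates 1 to 3.

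**Figure D2:**
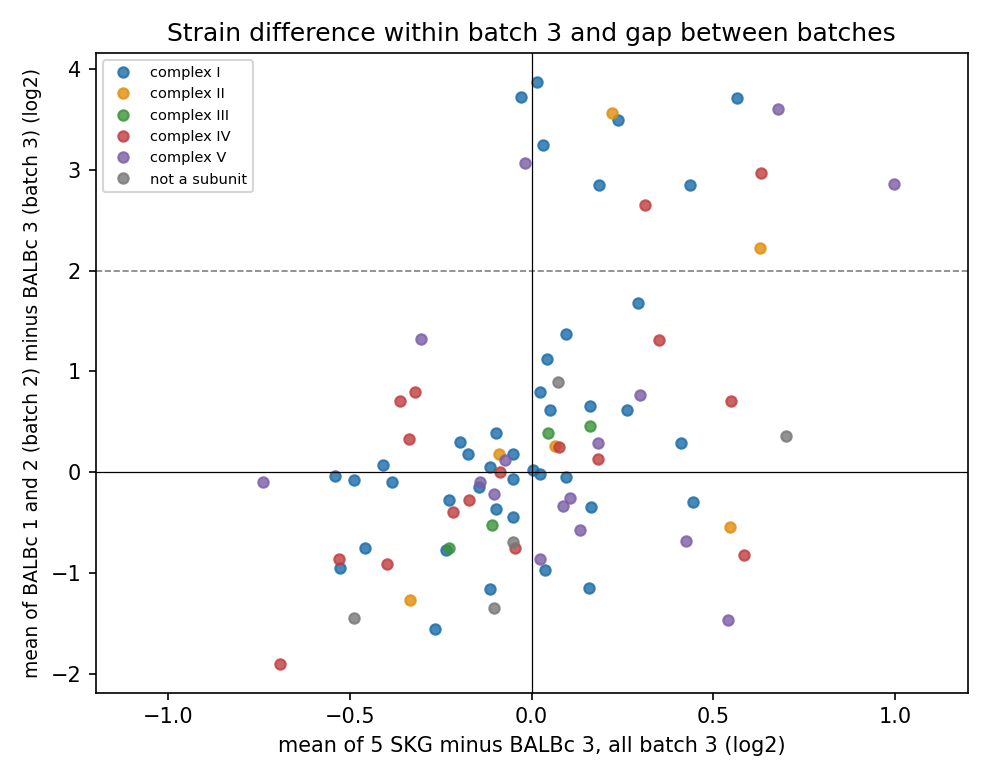
For each of the 89 kept probes, the mean of BALBc replicates 1 and 2 (batch 2) minus BALBc replicate 3 (batch 3) on the vertical axis against the mean of the 5 SKG mice minus BALBc replicate 3 within batch 3 on the horizontal axis, both in log2; colours give the complex and the dashed line a gap of 2. The 14 probes above the line reach 3.87 vertically and stay between −0.028 and 1.0 horizontally.

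Other probes of the same genes, where there were any, did not pass that limit. Of the 14 genes, 4 had other kept probes, 8 in number, and their gaps ran from −1.15 to 1.68. Ndufa5, an accessory subunit of complex I, has 2 probes. Probe 6560152 measured 6.45, 6.28, 6.14, 6.40 and 6.22 in SKG replicates 4 to 8, against 10.20, 10.11 and 6.28 in BALBc replicates 1 to 3. Probe 3850307 measured 11.92, 11.64, 10.78, 11.57 and 11.59 in SKG replicates 4 to 8, against 11.42, 11.49 and 11.48 in BALBc replicates 1 to 3, with the 3 BALBc mice nearly alike. Ndufs4, an accessory subunit of the NADH-oxidising arm whose loss causes Leigh syndrome in humans, has 4 probes. Probe 4490154 measured 8.40, 8.84, 8.94, 8.60 and 8.50 in SKG replicates 4 to 8, against 11.35, 11.30 and 8.47 in BALBc replicates 1 to 3. Probe 6040017 ran the other way, with 11.54, 11.33, 9.99, 11.42 and 11.34 in SKG replicates 4 to 8, against 9.92, 9.72 and 10.96 in BALBc replicates 1 to 3. Fitted strain differences of the 4 probes were −0.55 ± 0.48, −0.26 ± 0.30, −0.14 ± 0.40 and 0.45 ± 0.46, of both signs. In all, 13 member genes had several kept probes, and in 10 of them the fitted differences had both signs. Most of these differences were smaller than their SE, so their signs are not settled. The share over all genes with several probes was not counted. Which transcript forms or related gene copies each probe reads was not tested.

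Atp5j, coupling factor 6 of the peripheral stalk, shows the same disagreement across 3 probes. Probe 2060255 measured 6.92, 7.14, 5.60, 5.80 and 7.34 in SKG replicates 4 to 8, against 8.59, 8.26 and 5.56 in BALBc replicates 1 to 3. Probe 6860056 measured 12.65, 12.46, 11.51, 12.74 and 12.65 in SKG replicates 4 to 8, against 12.45, 12.13 and 12.50 in BALBc replicates 1 to 3. The dim probe 4860673, detected on 5 of 5 SKG and 1 of 3 BALBc arrays, had a fitted difference of 0.60 ± 0.29 (adjusted p 0.401), against 0.26 ± 0.66 and −0.049 ± 0.36 for the other two. Sdhb probe 1470709, detected on 5 of 5 SKG and 2 of 3 BALBc arrays, measured 5.29, 5.14, 5.32, 5.21 and 5.53 in SKG replicates 4 to 8, against 7.17, 6.63 and 4.67 in BALBc replicates 1 to 3, a gap that its other 2 probes did not show. Smaller disagreements in sign were seen in Ndufa8 (0.25 and −0.15), Ndufc1 (−0.0087 and 0.11) and Emc8 (−0.12 and 0.24).

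**Figure D3:**
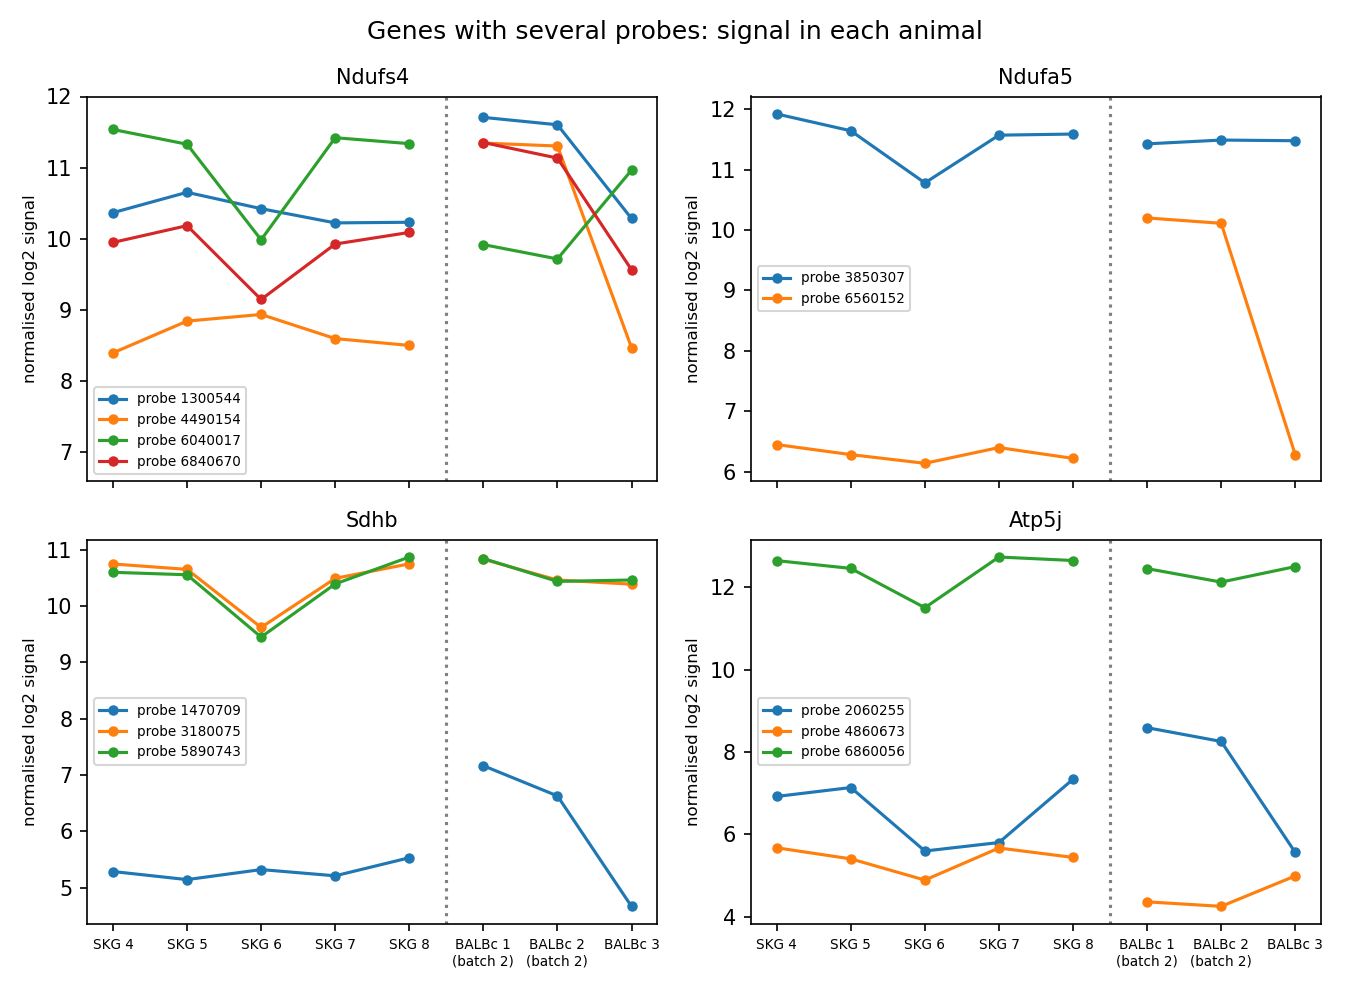
Normalised log2 signal (vertical axis) of each probe of Ndufs4, Ndufa5, Sdhb and Atp5j in each mouse (horizontal axis, SKG left of the dotted line, BALBc right of it); lines join values of 1 probe and imply no order of mice. Ndufa5 probe 6560152 reads 10.20 and 10.11 in the BALBc mice of batch 2 and 6.28 in that of batch 3, while Ndufa5 probe 3850307 stays between 11.42 and 11.49 in them.

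The direction of the members as a group depended on scaling. After quantile normalisation the median fitted difference of the 89 probes was −0.095, with 56 below 0 (62.9%), against a median of 0.010 and 49.1% below 0 for all probes. With each array scaled to its 75th percentile instead, the median was 0.26 with 22 below 0 (24.7%), against 0.17 and 35.1% for all probes. The change of scaling moved the median of all probes by 0.16 and that of the members by 0.36. Single mice moved it too: without SKG replicate 6 the members' median after quantile normalisation was 0.043, and without BALBc replicate 3 it was −0.16. No member passed under the second scaling either, against 1.07% of all probes; at an unadjusted p under 0.05 the count was 9 members (10.1%), against 14.9%. Medians by complex under the second scaling were 0.25 for complex I, 0.21 for complex II, 0.45 for complex III, 0.25 for complex IV and 0.41 for complex V, each above its quantile value. Within batch 3 the members' median was 0.015 after quantile normalisation and 0.26 after 75th percentile scaling, against 0.018 and 0.12 for all probes. Without the 14 probes of the batch gap, the remaining 75 had a median of −0.035 after quantile normalisation and 0.33 after 75th percentile scaling.

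**Figure D4:**
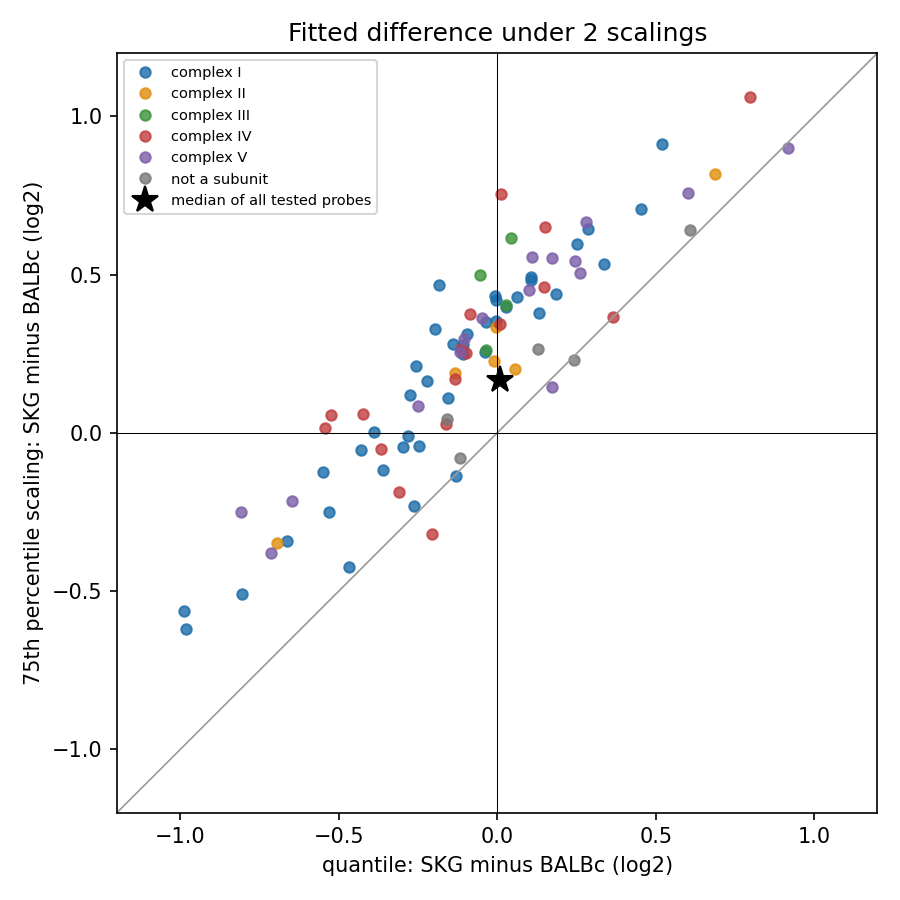
Fitted SKG minus BALBc difference (log2) of each of the 89 kept probes after 75th percentile scaling (vertical axis) against quantile normalisation (horizontal axis), coloured by complex; the grey line marks equality and the star the medians of all 13775 tested probes, 0.17 and 0.010. Most points lie above the line, and the members' median is 0.26 vertically and −0.095 horizontally.

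Within SKG, 1 animal, replicate 6, stood apart from the others. The array of SKG replicate 6 had the lowest 75th percentile of raw signal (158.3, against 178.6 to 207 on the other SKG arrays). It also had the fewest detected probes (12445). With 1 array per mouse, a trait of the array and one of the animal cannot be told apart. SKG replicate 6 was below each of the other 4 SKG mice in 55 of the 89 probes (61.8%), against 34.9% of all kept probes, and above them in 13 (14.6%), against 34.8%. By the ratio of a far mouse's gap to the range of the 5 SKG mice, with a critical value of 0.71, 1 mouse was far from the other 4 in 24 of the 89 (27%), against 12% of all probes. It was replicate 6 and low in 21 (23.6%), against 5.16%, and replicate 6 and high in 2 (2.25%), against 4.53%. In the authors' deposited table replicate 6 was below the other SKG mice in 32 of 48 member probes. The share over all probes of that table was not counted, so this number has no background beside it. After quantile normalisation its median difference from the mean of the other 4 was −0.39 over the members and −0.0072 over all probes. After 75th percentile scaling it was −0.25 over the members and 0.22 over all probes. Each complex had the same sign under quantile normalisation: −0.38 for complex I, −0.18 for complex II, −0.45 for complex III, −0.43 for complex IV and −0.51 for complex V; after 75th percentile scaling complex II was at 0.073 and the other 4 were below 0. Of the peripheral stalk of ATP synthase, all 6 probes (4 genes) were lowest in this mouse among the SKG mice. Atp5pb, the b subunit of that stalk, measured 10.63, 10.29, 8.69, 10.73 and 10.59 in SKG replicates 4 to 8, against 10.82, 10.50 and 9.89 in BALBc replicates 1 to 3. Its value in SKG replicate 6 was −1.87 relative to the mean of the other 4, the largest such difference among the 89 probes. The median SD over the 5 SKG mice was 0.281 for members, and 0.152 without this animal, against 0.288 and 0.202 for all probes. The standard error between beads of a probe on an array had a median of 0.0567 log2 units (17 to 65 beads). It was taken on the raw signal before background correction, so it is not on the same scale as these SDs.

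**Figure D5:**
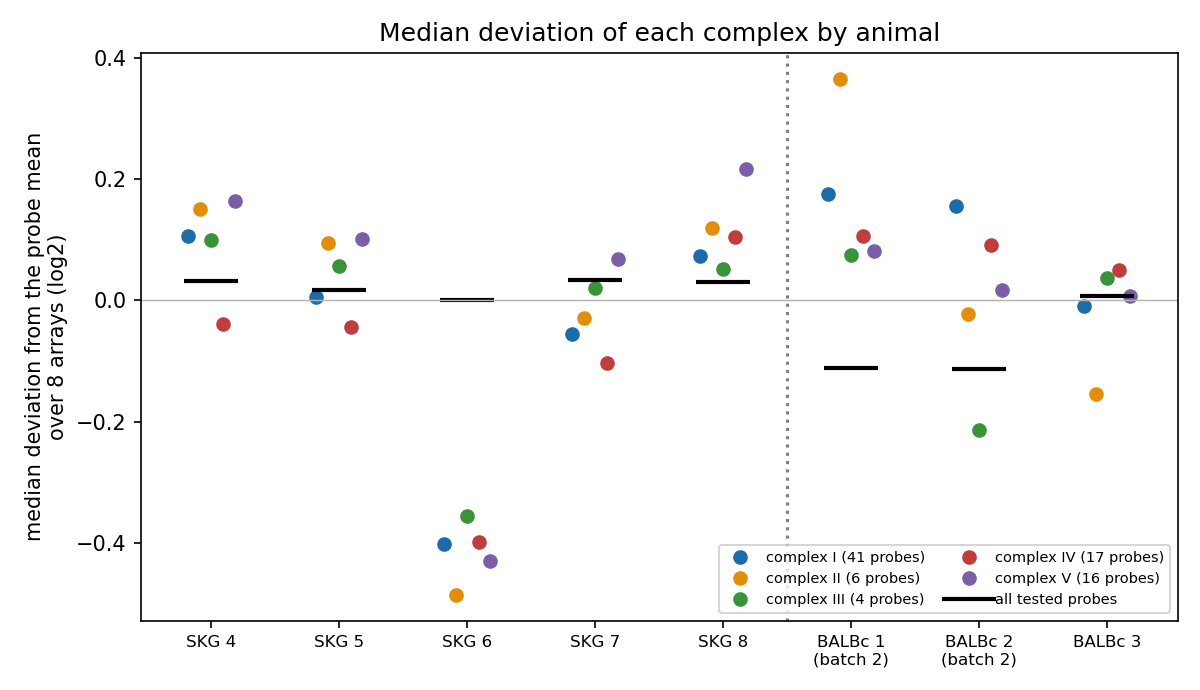
Median, over the probes of each complex, of the deviation from each probe's mean over the 8 arrays (log2, vertical axis) in each mouse (horizontal axis, SKG left of the dotted line); black bars give the same over all 13775 tested probes. All 5 complexes sit between −0.49 and −0.36 in SKG replicate 6, where the bar is at 0.

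A few members went the other way in that mouse. Cox8b stood 1.50 above the mean of the other 4 SKG mice, Emc8 probe 3440280 0.99 and Ndufb10, an accessory subunit of complex I, 0.93. Other lists are set against the same 34.9% below and 34.8% above of all probes. The animal was below the other SKG mice in 8 of 13 cycling crypt probes (median difference −0.55), 51 of 94 probes of mitochondrial ribosomal proteins, 27 of 48 of assembly factors, 9 of 20 of the tricarboxylic acid cycle and 4 of 12 of regulators of mitochondrial genes (3 of 12 above, median −0.075), and above them in 8 of 10 B and plasma cell probes, 9 of 16 T cell probes and 3 of 4 fat probes. The log2 of the summed B and plasma cell signal was 10.68 in SKG replicate 6 and 9.05 to 9.82 in the other SKG mice, and the summed fat signal was 12.86 in SKG replicate 6 and 10.50 to 11.87 in the others. What sets this animal or its array apart was not tested.

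Genes that build, feed or regulate the chain were read from the same fit, and none passed. Of 48 assembly factor probes 0 passed (22 below 0, median 0.015); the smallest p-values were those of Tmem126b, which helps build the membrane arm of complex I (0.62 ± 0.22, adjusted p 0.245), and Ndufaf3 (−0.65 ± 0.26, adjusted p 0.309). Of 20 probes of the tricarboxylic acid cycle and pyruvate dehydrogenase 0 passed (7 below 0, median 0.062), with Dlst (0.57 ± 0.21, adjusted p 0.251) and Dlat (0.37 ± 0.21, adjusted p 0.491) first. Dlst, a core enzyme of the 2-oxoglutarate dehydrogenase complex, measured 11.91, 11.76, 11.81, 11.91 and 11.82 in SKG replicates 4 to 8, against 11.14, 11.03 and 11.33 in BALBc replicates 1 to 3. Of 12 regulator probes 0 passed (6 below 0), with Ppargc1a, a coactivator of mitochondrial genes, first (0.73 ± 0.38, adjusted p 0.439) and then Tfam, which packages and transcribes mitochondrial DNA (−0.55 ± 0.30). Of 94 mitochondrial ribosome probes 0 passed (43 below 0, median 0.040); Mrpl52 (−1.06 ± 0.33, adjusted p 0.19) and Mrps28 (−0.70 ± 0.24, adjusted p 0.227) had the smallest p-values. Of 8 probes of chain components outside the name rule 0 passed, and 2 of them showed the gap between batches: a Cycs probe for cytochrome c, with 5.30, 6.34, 6.26, 5.81 and 5.56 in SKG replicates 4 to 8, against 9.41, 9.41 and 4.67 in BALBc replicates 1 to 3, and Atp5md, with 6.81, 7.12, 6.11, 6.80 and 6.61 in SKG replicates 4 to 8, against 10.03, 10.02 and 6.30 in BALBc replicates 1 to 3.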

How the data were processed

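Total RNA of terminal ileum was amplified and hybridised to 1-colour Illumina MouseRef-8 bead arrays, per the labels' protocols. The deposited signal is an intensity, the mean over the beads of a probe, exported from GenomeStudio 1.9.0 without normalisation per the file headers. The deposited detection column is a fraction, 1 minus the detection p against negative controls, and bead numbers and bead SDs were deposited beside it. The authors' deposited table of log2 values served as an alternative; how it was centred is not stated.

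Signals of 8 arrays were corrected with normexp from detection p (offset 16), quantile normalised and converted to log2 (limma 3.58.1, statmod 1.5.0, R 4.3.3). The filter on dim probes required a detection p below 0.05 on 3 or more arrays. SKG was compared with BALBc by limma with batch as a random block (consensus correlation 0.544), two-sided, with Benjamini-Hochberg adjustment over all 13775 kept probes and a threshold of 0.05. The second scaling subtracts each array's 75th percentile of the log2 signal after the same correction. The script was tested on simulated data.

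Of the 77 member names 72 matched a symbol of the RefSeq gene table (GRCm38.p6) and 5 an older name. Named probes were the 10 smallest p-values, the highest and lowest of each complex, fixed isoform pairs and genes whose probes disagree in sign; 2 kept probes enter the counts but are not reported here by name. The members, lists and named-gene rule were chosen with earlier results of these data known. Each mouse is 1 sample per the labels, and the number of arrays limits the precision. Alternatives were the scaling, the batch term, background correction, offset, filter, the deposited log2 table, batch 3 alone (added after seeing the data) and leaving out each mouse.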

Additional observations from a re-analysis of the deposited data

Results flagged for a closer look

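Of the 46 named probes, 12 had 1 SKG mouse far from the other 4, and in all 12 it was replicate 6. The measure is that mouse's gap to its nearest SKG neighbour divided by the range of the 5 SKG mice, with a critical value of 0.71 for 5 samples; chance alone gives about 5% of such groups. Replicate 6 was low in 10: Ndufa6 probe 4210600 (0.797), Ndufa8 probe 4220519 (0.833), Ndufs4 probe 6040017 (0.866), Ndufs4 probe 6840670 (0.751), Sdhb probe 3180075 (0.772), Uqcrc2 probe 2650608 (0.859), Uqcrh probe 6510139 (0.737), Ndufa4 probe 3780398 (0.779), Emc8 probe 5810630 (0.776) and Atp5j probe 6860056 (0.776). It was high in 2: Cox8b probe 3710154 (0.828) and Emc8 probe 3440280 (0.824). The 2 Emc8 probes were thus apart in opposite directions in the same mouse. Over all 89 kept members the measure was past that value in 24 (27%), against 12% of all kept probes. Over all kept probes replicate 6 was the far mouse and low in 5.16%, and the far mouse and high in 4.53%, so its far values were found outside the members too. BALBc, with 3 mice, was not tested in this way.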

How the results depend on the processing

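No paired analysis was possible because the labels match no SKG mouse to a BALBc mouse. Each of the 46 named probes was tested in the main fit and in 15 to 17 other settings. Of them 14 kept 1 sign throughout and 32 did not. Of 755 pairs of probe and setting 27 passed the threshold. Sdhc probe 3290630 without a batch term was 1 of these. The others all came from the fit without BALBc replicate 3, where batch and strain cannot be told apart and 38.1% of all probes passed. Counts of all probes called higher or lower were 48 and 36, and they were 102 higher with 75th percentile scaling, 454 and 281 without a batch term, 60 lower with batch as a fixed term, 76 higher without a filter on dim probes, 10 and 65 in the authors' deposited table and 15 higher in batch 3 alone. Member counts called stayed at 0 except for 1 higher without a batch term and 16 higher and 25 lower without BALBc replicate 3. The median difference of all probes was 0.17 with 75th percentile scaling, 0.077 without a batch term, 0.039 over probes detected on all 8 arrays and −0.0069 in the deposited table; that of members was 0.26 with 75th percentile scaling, and those of complexes I, III, IV and V 0.25, 0.45, 0.25 and 0.41. In the deposited table, which holds 48 member probes, complex IV was at 0.081 and 1 probe had the batch gap. There 32 members were lower in SKG replicate 6 than in the other SKG mice, with no share over all probes counted. Leaving out 1 mouse in turn gave 7 to 2939 of all probes higher, 17 to 2217 lower and a median of all probes of 0.0084 to 0.15; members called ran from 0 to 16 higher and 0 to 25 lower. The sign turned in at least 1 of these fits for Cox7a2l (−0.18 to 0.26), Ndufa5 3850307 (−0.075 to 0.20), Ndufc1 2510605 (−0.49 to 0.23), Sdhc 5670100 (−0.18 to 0.93), Uqcrh (−0.32 to 0.053), Atp5j 6860056 (−0.13 to 0.14), Ndufs4 6840670 (−1.39 to 0.22), Sdhb 3180075 (−0.20 to 0.23), Sdhb 5890743 (−0.27 to 0.11), Uqcrc2 (−0.28 to 0.20), Sdhb 1470709 (−1.61 to 0.33), Cox4i1 (−0.18 to 0.098), Cox4i2 (−0.27 to 0.53), Cox6a2 (−0.52 to 0.33), Cox6b1 780093 (−0.19 to 0.18), Cox6b2 (−0.16 to 0.45), Cox8b (−0.71 to 1.21), Atp5j 2060255 (−1.88 to 0.84), Emc8 3440280 (−0.47 to 0.96), Ndufa8 5900242 (−0.24 to 0.052) and Ndufc1 5080328 (−0.35 to 0.38). With 75th percentile scaling the sign turned for Cox6c (0.058), Uqcrh (0.50), Cox6a1 1510133 (0.015), Cox4i1 (0.25), Cox4i2 (0.026), Cox6a1 1170768 (0.056), Cox6b1 780093 (0.27), Atp5j 6860056 (0.36), Ndufa8 5900242 (0.11), Ndufc1 2510605 (0.43), Ndufs4 1300544 (0.21), Ndufs4 6840670 (0.28), Sdhb 3180075 (0.33), Sdhb 5890743 (0.19) and Sdhc 5670100 (0.23). Without a batch term the sign turned for Uqcrc2 (−0.14), Cox4i1 (0.015), Cox4i2 (0.21), Cox6a2 (0.042), Cox6b1 780093 (0.051), Cox7a2l (−0.094), Cox8b (0.57), Atp5j 2060255 (−0.91), Atp5j 6860056 (0.038), Emc8 3440280 (0.47), Ndufc1 5080328 (−0.15), Sdhb 1470709 (−0.86) and Sdhc 5670100 (0.51). With batch as a fixed term the sign turned for Sdhd (0.22), Uqcrh (0.046), Cox6b1 4900379 (−0.044), Cox7a2 (0.31), Emc8 5810630 (−0.10), Ndufa5 6560152 (0.015), Ndufc1 2510605 (0.16), Ndufs4 1300544 (0.094), Ndufs4 4490154 (0.18), Ndufs4 6840670 (0.29) and Sdhb 3180075 (0.064). Without background correction the sign turned for Sdhb 1470709 (−0.051). With an offset of 50 the sign turned for Sdhb 1470709 (−0.029). Over probes detected on all 8 arrays the sign turned for Ndufc1 2510605 (0.018) and Sdhb 3180075 (0.0076). Without a filter on dim probes the sign turned for Uqcrc2 (−0.040), Cox4i2 (0.0037), Cox7a2l (−0.036), Cox8b (0.14), Atp5j 2060255 (−0.26), Emc8 3440280 (0.14), Ndufc1 5080328 (−0.0065), Sdhb 1470709 (−0.35) and Sdhc 5670100 (0.22). In the authors' deposited table the sign turned for Atp5a1 (0.15), Emc8 5810630 (−0.081), Ndufa5 3850307 (−0.14), Ndufc1 2510605 (0.073) and Sdhb 5890743 (0.018). In batch 3 alone the sign turned for Sdhd (0.22), Uqcrh (0.058), Cox6b1 4900379 (−0.053), Cox7a2 (0.32), Emc8 5810630 (−0.11), Ndufa5 6560152 (0.016), Ndufc1 2510605 (0.16), Ndufs4 1300544 (0.096), Ndufs4 4490154 (0.19), Ndufs4 6840670 (0.30) and Sdhb 3180075 (0.066). Multi-probe genes carry a probe number. The causes of these changes were not tested. The deposited table and stricter filter hold fewer probes, though that table does hold several probes with the batch gap, such as Ndufb9 and Atp5a1. The 3 BALBc mice and the single BALBc array of batch 3 limit every comparison.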
